A study of Mus musculus with 4 samples.

Results

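The type I interferon-stimulated genes were taken as a fixed list of 43 symbols, and a symbol entered where its row held at least 20 unique molecular identifiers (UMIs, each standing for 1 captured RNA molecule) over both gene expression matrices. Of the 43, 41 had a row and all 41 passed, out of 13657 genes that passed the same rule. Mx1 and Mx2 are not analysed here. The rule uses no difference between the libraries.

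Cells came from MC38 tumors, a mouse colon carcinoma line grown in bone marrow chimeras on C57/BL6. The chimeras were made with WT and VISTA KO marrow, received the tumor cells 6 weeks after reconstitution, and were harvested at a tumor diameter of 9 to 10 mm. How the hosts were conditioned, and whether WT and VISTA KO cells came from the same animals, is not stated in the labels. Tumors were pooled, CD45.1 and CD45.2 staining told WT from VISTA KO cells, and 10000 live CD11b+ cells per group, labelled as myeloid suppressor cells, went onto the 10x Genomics platform. Of the 4 samples, 2 are gene expression libraries and 2 hold antibody tags of the same cells. VISTA, encoded by Vsir, is an inhibitory surface protein of myeloid and T cells. Each group is 1 library, so every interval here covers counting error only, no test was run and cells were not used as replicates.

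Type I interferons bind a receptor made of IFNAR1 and IFNAR2, which signals through the kinases JAK1 and TYK2. Transcription factors, STAT2 and IRF9 among them, then bind an interferon-stimulated response element in target promoters, and the induced genes block viral entry, translation and replication. In tumors, myeloid cells are among the cells known both to make and to answer these cytokines. Several members, Irf7, Stat2, Irf9 and the RNA sensors among them, are parts of the pathway that also answer it.

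Before any value, the promoters of the members on which the results turn are shown, because a shared response element is what the members are known for. RefSeq promoter entries on GRCm38.p6 exist for 33 of the 41 members, each covering 250 bases before the start site and 50 from it. The element was searched as GAAANNGAAA and, on the other strand, TTTCNNTTTC, and matches may overlap each other. It was found in 18 of these 33 members (54.5%), against 1079 of 27025 genes with an entry (3.99%). A match is a description of letters and not of binding. The 250 bases before the start are printed 5′ to 3′ on the gene's strand, with every match in capitals, for the member that went against the rest (Isg15), 2 members that were higher in the VISTA KO library (Oas1a and Ifit1bl1) and 2 whose ratio between the libraries differed in direction between clusters (Ifit3 and Rsad2).

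Isg15 (chr4:156200819-156201068, minus strand): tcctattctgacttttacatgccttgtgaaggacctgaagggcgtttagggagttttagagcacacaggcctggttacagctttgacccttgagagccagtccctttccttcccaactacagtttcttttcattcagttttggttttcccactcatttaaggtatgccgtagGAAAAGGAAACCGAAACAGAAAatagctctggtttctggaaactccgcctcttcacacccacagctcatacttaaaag
Oas1a (chr5:120907526-120907775, minus strand): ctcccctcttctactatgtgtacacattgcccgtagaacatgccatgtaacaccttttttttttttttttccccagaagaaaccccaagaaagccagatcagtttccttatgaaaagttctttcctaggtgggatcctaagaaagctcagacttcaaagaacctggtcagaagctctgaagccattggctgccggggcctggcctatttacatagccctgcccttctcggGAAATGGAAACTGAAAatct
Ifit1bl1 (chr19:34601969-34602218, minus strand): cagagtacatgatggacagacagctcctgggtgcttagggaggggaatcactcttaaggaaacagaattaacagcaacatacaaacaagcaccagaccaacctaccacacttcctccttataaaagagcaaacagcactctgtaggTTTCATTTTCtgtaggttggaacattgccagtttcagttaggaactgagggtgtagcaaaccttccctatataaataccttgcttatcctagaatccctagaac
Ifit3 (chr19:34583279-34583528, plus strand): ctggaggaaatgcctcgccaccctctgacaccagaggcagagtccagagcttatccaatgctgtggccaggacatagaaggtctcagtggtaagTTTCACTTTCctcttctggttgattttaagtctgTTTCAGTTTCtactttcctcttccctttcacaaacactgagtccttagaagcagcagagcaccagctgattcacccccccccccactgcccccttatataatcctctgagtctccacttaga
Rsad2 (chr12:26456453-26456702, minus strand): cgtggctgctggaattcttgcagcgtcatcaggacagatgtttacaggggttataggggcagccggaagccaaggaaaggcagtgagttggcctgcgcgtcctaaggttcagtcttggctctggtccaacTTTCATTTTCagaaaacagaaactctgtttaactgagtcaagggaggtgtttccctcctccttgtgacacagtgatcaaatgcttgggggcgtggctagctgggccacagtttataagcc

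Isg15 held 3 overlapping matches, the first beginning 78 bases before the start site and the last 66. Oas1a held 2 overlapping ones, 20 and 14 bases before the start. Ifit1bl1 held 1 at 104 bases, Rsad2 1 at 120 bases, and Ifit3 a pair at 156 and 122 bases. Ifitm3 had 2 matches just past its start site, and no match lay in the windows of 15 members, among them Ifit2, Oasl1, Oasl2, Cmpk2, Irf7, Irf9 and Tnfsf10.

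The libraries held 61753547 (WT) and 80366761 (VISTA KO) UMIs, and 10193 and 15140 cells were kept, with a median of 4692 and 4212.5 UMIs. Of all barcodes, 47 sequences occurred in both libraries. Vsir, the targeted gene, had 136.5 CPM (UMIs per 1000000 UMIs of the sum) in the library labelled WT and 46.2 CPM in that labelled VISTA KO over all kept cells. It was lower but not absent under the knockout label. Cells were clustered without the members, the interferon gamma and Ifi200 lists described below, and Ccl5. Other genes that went with the members, such as Ms4a4c and Phf11b, were not kept out, so the clusters may still follow the module. From markers, 6 classes with at least 50 cells in each library were named. Monocyte-like cells numbered 3490 in WT and 3406 in VISTA KO, macrophage-like 1526 and 4050, cDC2-like (type 2 conventional dendritic cells) 468 and 728, mature dendritic cell (DC)-like 170 and 262, NK-like 636 and 593, and neutrophil-like 390 and 78. The sort was for CD11b, and the libraries still held clusters of mixed droplets, of T cells and of cells with no name. No doublets were removed.

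Over all kept cells the 41 members made up 25876 CPM in WT (95% Poisson interval 25836 to 25916) and 22523 CPM in VISTA KO (22490 to 22555). In this sum over all classes 2 members, Oas1a and Oas1g, were at least 1.5-fold higher in VISTA KO and 4, Isg15, Isg20, Ifit3b and Rsad2, lower. Among all genes 5.37% and 5.16% were, and the libraries hold the classes in different shares. A few members carried most of that RNA. In monocyte-like cells Ifitm3 and Ifi27l2a, which code for membrane proteins of the interferon response, stood at 7713 and 7096 CPM in WT and 7866 and 7376 in VISTA KO. With Isg15, a ubiquitin-like protein that is joined to other proteins, they made up 61.3% (WT) and 57.7% (VISTA KO) of all member UMIs. The sum is therefore mostly a statement about those 3 genes, and the other 38 are also given apart for the class levels, the single cells and the most correlated genes.

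Neutrophil-like cells had the highest share of member RNA. The module made up 52816 CPM (52201 to 53435) in WT and 40516 (39321 to 41737) in VISTA KO. Monocyte-like cells followed with 27851 (27771 to 27932) and 28762 (28669 to 28854). cDC2-like cells had 22862 and 23893 CPM, macrophage-like 22370 and 20475, mature DC-like 17521 and 16365, and NK-like 11886 and 13193. The 6 classes fell in the same order in both libraries. Summed over the other 38 members, neutrophil-like cells had 28199 and 24976 CPM and monocyte-like 10772 and 12175. Macrophage-like cells then lay above cDC2-like cells in WT (8835 and 8217 CPM) and below them in VISTA KO (8318.5 and 9893), and mature DC-like and NK-like cells came last in both. Neutrophil-like droplets were shallow, with a median of 1216 and 1392.5 UMIs, so the same share meant fewer molecules: 72.4 and 55.8 member UMIs per cell (WT, then VISTA KO), against 132 and 109 in monocyte-like cells. All 12 neutrophil markers were present there, and their summed level was 91516 CPM in WT and 109329 in VISTA KO, against 251 and 204 in monocyte-like cells.

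**Figure D1:**
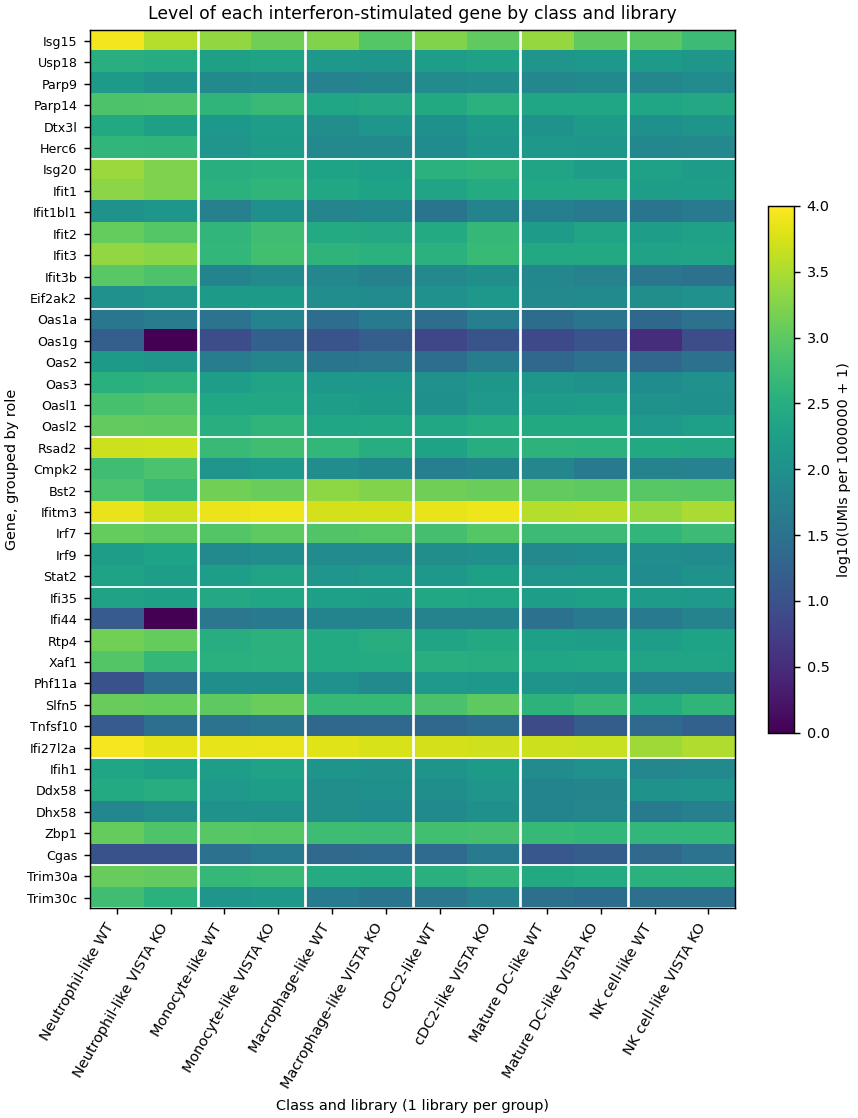
Level of each of the 41 members, grouped by role, in 6 classes and both libraries, coloured by log10 of UMIs per 1000000 plus 1. Of the 6 classes, neutrophil-like cells are the brightest for Rsad2 (4907 and 5192 CPM), Ifit1, Ifit3 and Isg20, whereas Bst2 and Ifi44 are highest in macrophage-like cells.

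Rsad2, coding for viperin, which makes a chain-terminating nucleotide, had 4907 CPM in neutrophil-like cells of the WT library and 5192 in those of the other. The next class, monocyte-like, had 504 and 601. The neutrophil-like values lay far above those of the other classes in both libraries. Ifit3b, one of the IFIT proteins that bind foreign RNA, had 962 and 763 CPM in neutrophil-like cells and at 61.7 and 80.6 in monocyte-like cells. Isg20, an RNA exonuclease, had 2508 and 1666 against 337 and 349 CPM. Of the 41 members, 32 were highest in neutrophil-like cells in WT and 24 in VISTA KO. The share of all genes that are highest in these cells was not counted, so these counts have no background beside them. By a rule of size used throughout (a ratio of at least 1.5-fold whose 95% interval leaves out 1, among genes with at least 20 UMIs in the comparison), 24 members were higher in neutrophil-like than in monocyte-like cells of WT and 18 in VISTA KO. Among all genes 12.3% and 8.38% met it. In WT the median member was 1.00 above monocyte-like cells on the log2 scale, and the median gene was at -0.40. In VISTA KO, from 78 neutrophil-like cells, the median member was at 0.46, close to the median gene at 0.40. The pseudocount of 1 UMI weighs more in the smaller sum, and its part in these medians was not tested.

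Other members ran the opposite way. By the same rule 6 were lower in neutrophil-like than in monocyte-like cells of WT (30.3% of all genes) and 4 in VISTA KO (10.4%). Bst2, which codes for tetherin and holds budding virus on the cell surface, had 745 and 521 CPM in neutrophil-like cells, 1384 and 1240.5 in monocyte-like cells, and its highest level, 2101 and 1724, in macrophage-like cells. Cgas, the cytosolic DNA sensor, had 5 and 1 UMIs in all neutrophil-like cells, and Ifi44 and Phf11a had at most 7. Tnfsf10, coding for the death ligand TRAIL, had 7 and 3. At these counts low and absent cannot be told apart.

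Monocyte-like cells held more member RNA than macrophage-like cells. By the rule 12 members were higher and 2 lower in WT (background 8.48% higher and 22.4% lower), and 24 and 0 in VISTA KO (9.58% and 23.3%). The median member was 0.45 on the log2 scale above macrophage-like cells in WT and 0.68 in VISTA KO, while the median gene was at -0.17 and -0.15. Slfn5, a Schlafen gene, had 1015 and 1220.0 CPM in monocyte-like cells and 470.4 and 469 in macrophage-like cells. Zbp1, a sensor of Z-form nucleic acid, had 926 and 885 against 570 and 552 CPM. Ifi44 and Bst2 were the 2 lower members in WT.

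NK-like cells were the low end. None of the 41 members was higher than in monocyte-like cells by the rule (29.1% of all genes were in WT and 28.7% in VISTA KO), and 31 and 32 were lower (13.1% and 10.5%). The cluster held droplets that also carried macrophage RNA. At a finer clustering (Leiden resolution 2) these split off. The 506 WT and 406 VISTA KO droplets that stayed NK-like had 4505 and 6158 CPM of member RNA and 39.8 and 191 CPM of the macrophage gene C1qa. The 132 and 190 mixed ones had 20595 and 18231 CPM, with C1qa at 1626 and 1633. Isg15 in the unmixed droplets was 325 CPM in WT and 231 in VISTA KO, Ifitm3 341 and 830, and Rsad2 53.5 and 97.5. C1qa RNA moved with the module across these droplets and was higher in the unmixed VISTA KO droplets than in the WT ones, and the part of free or mixed RNA in the NK-like values was not tested.

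The dendritic classes lay between. In cDC2-like cells 1 member (Ifi44) was higher and 10 were lower than in monocyte-like cells of WT (13.9% and 12.6% of all genes), and 0 and 7 in VISTA KO (12.7% and 11.8%). The lower ones in both libraries included Oas3, Oasl1, Rsad2 and Cmpk2. Rsad2 stood at 212 and 311 CPM in cDC2-like cells. Mature DC-like cells, marked by Ccr7 and Fscn1, were lower still: 3 members higher and 8 lower than cDC2-like cells in WT (14.6% and 16.9%) and 0 and 15 in VISTA KO (14.5% and 12.6%). Ifitm3 was among the lower ones in both libraries, with 3550.5 and 3874 CPM against 7379.7 and 7787.

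Between the libraries the module as a sum hardly differed in monocyte-like cells, while its members did not move as 1. The sum was 0.05 higher in VISTA KO on the log2 scale, and -0.04 when ratios were centred on the median gene. Of the 41 members, 37 had a positive log2 ratio, with a median of 0.23 against 0.09 over all genes. By the rule 3 were higher (Oas1g, Oas1a and Ifit1bl1) and 1 lower (Isg15), where 5.82% of all genes were higher and 2.02% lower. The share of members called higher, 7.32%, was near that background. With each library clustered alone (3565 and 2443 cells) it was not: 8 members were higher, 19.5%, where 6.73% of all genes were, and 1 lower, where 3.12% were, with a median member of 0.38 against 0.08 over all genes. Ifit2, Ifit3, Ifit3b, Oas2 and Cgas joined the 3 named. The 13 macrophage markers, none at 0, summed to 2389 CPM in the WT and 4070.5 CPM in the VISTA KO monocyte-like cells, and their part in these ratios was not tested.

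Isg15 (chr4:156199424-156200818, minus strand, GRCm38.p6) went against the rest. Monocyte-like cells had 2269.6 CPM of it under the WT label (37431 UMIs) and 1344 under VISTA KO (17343 UMIs), a log2 ratio of -0.76 (-0.78 to -0.73). In neutrophil-like cells the values were 8581 and 3592 CPM (-1.25, -1.41 to -1.11). Macrophage-like cells had 1719.8 and 887 CPM (-0.95), mature DC-like 2324 and 1046.5 (-1.15), cDC2-like 1746 and 1057.5 (-0.72) and NK-like 953 and 546 (-0.80). The VISTA KO value was the lower one in all 6 classes. In NK-like cells this rests on how mixed droplets are treated: the ratio was -0.49, under 1.5-fold, at the finer clustering that splits them off, -0.48 without droplets above 10000 UMIs, and 0.70 with each library clustered alone, where they stayed in the VISTA KO class only. Over the 15 clusters with at least 50 cells in both libraries the ratio was negative in 15, from -1.62 to -0.67 with a median of -1.03, and met the rule in all 15, where between 1.65% and 4.36% of genes were lower. No other member was lower by the rule in more than 4 of these clusters. The clusters are parts of the same libraries and not repeats of the comparison, and some hold mixed droplets. Among the genes around Isg15 on chromosome 4, Agrn was at 0.17, AW011738 at 0.22, Sdf4 at 0.08 and Noc2l at -0.04 in monocyte-like cells. Plekhn1 was at 0.95 (85 and 129 UMIs), and Tnfrsf18, with 81 and 45 UMIs, at -0.48 (-1.05 to 0.05).

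Isg15 was also found in fewer monocyte-like cells. After each cell was thinned to 1000 UMIs, which left out 65 WT and 248 VISTA KO cells, 76.7% of WT (95% binomial interval 75.3% to 78.1%) and 63.0% of VISTA KO cells (61.3% to 64.7%) held an Isg15 UMI, and 94.7% and 88.1% before thinning. In macrophage-like cells the thinned shares were 65.2% and 47.2%, and in NK-like cells, the class with the least member RNA, 32.6% and 26.5%. Before thinning they were 89.6% and 80.6% in macrophage-like cells, and in NK-like cells, which were deeper in VISTA KO, 49.4% and 53.3%, the opposite order. Usp18, the protease that removes ISG15 from proteins, did not follow: 185 and 204 CPM in monocyte-like cells (0.14). Herc6, a ligase for ISG15 in the mouse, had 122 and 154 CPM (0.34), and the Parp9 and Dtx3l pair, which act together in ADP-ribosylation and ubiquitin transfer, were at 0.17 and 0.37. So of this group of 6 the 5 other members, Parp14 included (0.27), were on the positive side.

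**Figure D2:**
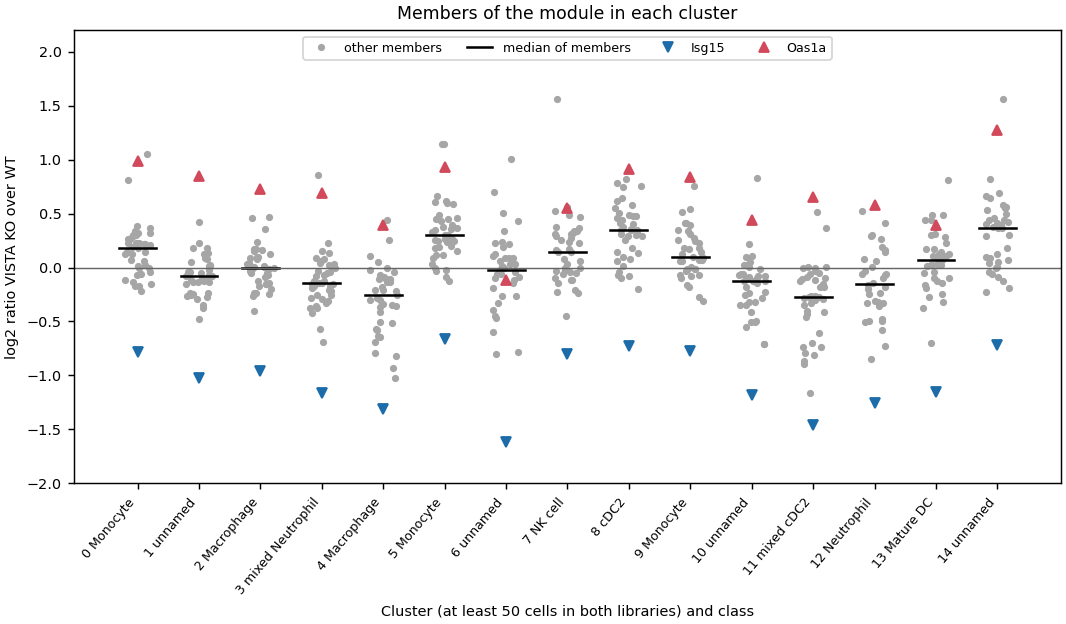
Log2 ratio of VISTA KO over WT for every member with at least 20 UMIs in each of the 15 clusters that hold at least 50 cells per library. Grey points are members and black lines their median. Isg15 (blue) is below 0 in 15 of 15 clusters and Oas1a (red) above 0 in 14 of 15.

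Among the oligoadenylate synthetases, a family named for making the activator of RNase L, Oas1a and Oas1g stood at the other end. Oas1a had 32.7 CPM in WT and 62.8 in VISTA KO in monocyte-like cells, a log2 ratio of 0.94 (0.78 to 1.10). Oas1g had 8.25 and 16.7 CPM (1.02, 0.71 to 1.34), from 136 and 216 UMIs. Oas2 was at 0.49, Oas3 at 0.35, Oasl2 at 0.29 and Oasl1 at 0.07. All 6 of the family were positive and 2 met the rule. Oas1a was positive in 14 of 15 clusters and met the rule in 9, where between 3.26% and 7.48% of genes were higher. The exception was the unnamed cluster 6, at -0.12 (-1.08 to 1.43) from 7 and 60 UMIs. Oas1a and Oas1g are near-identical copies beside each other on chromosome 5, and how reads were divided between them is not given, so their sum is the safer value: 41.0 and 79.6 CPM (0.96, 0.82 to 1.10).

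The IFIT genes, next to each other on chromosome 19, were mostly on the positive side in monocyte-like cells. Ifit1bl1 stood at 53.3 and 101 CPM (0.92, 0.80 to 1.05) and was the only one of the group to meet the rule. Ifit2 had 432 and 601 CPM (0.48), Ifit3 442 and 612 (0.47), Ifit3b 61.7 and 80.6 (0.39) and Ifit1 356 and 412 (0.21). Ifit3 and Ifit3b are close copies, and summed they were at 0.46. Ifit1 with Ifit1bl1 was at 0.33, so the difference of Ifit1bl1 is not seen at its size in the sum, to which Ifit1 gives most UMIs. Eif2ak2, coding for the kinase PKR that stops translation, was at 0.04 and Isg20 at 0.05.

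The remaining roles differed less. Of the transcription factors, Irf7, which drives further interferon production, stood at 849 and 1009.8 CPM (0.25), Stat2 at 176 and 216 (0.30) and Irf9 at 81.3 and 91.0 (0.16). Of the sensors, Ddx58 (RIG-I) was at 0.23, Ifih1 (MDA5) at 0.17, Dhx58 (LGP2) at 0.07 and Cgas at 0.39 (0.22 to 0.57). Zbp1 was at -0.07. Beside Isg15 and Zbp1, only Bst2 (-0.16) and Ifi35 (-0.14) had a negative ratio here. Bst2 and Zbp1 were each negative in 14 of 15 clusters, at a median of -0.20 and -0.10, and met the rule in none. Rsad2 was at 0.25 and its chromosomal neighbour Cmpk2, a mitochondrial nucleotide kinase, at 0.22. Trim30a and Trim30c, close copies on chromosome 7, were at 0.19 and 0.16. All members outside the 4 that met the rule lay between -0.16 and 0.49.

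**Figure D3:**
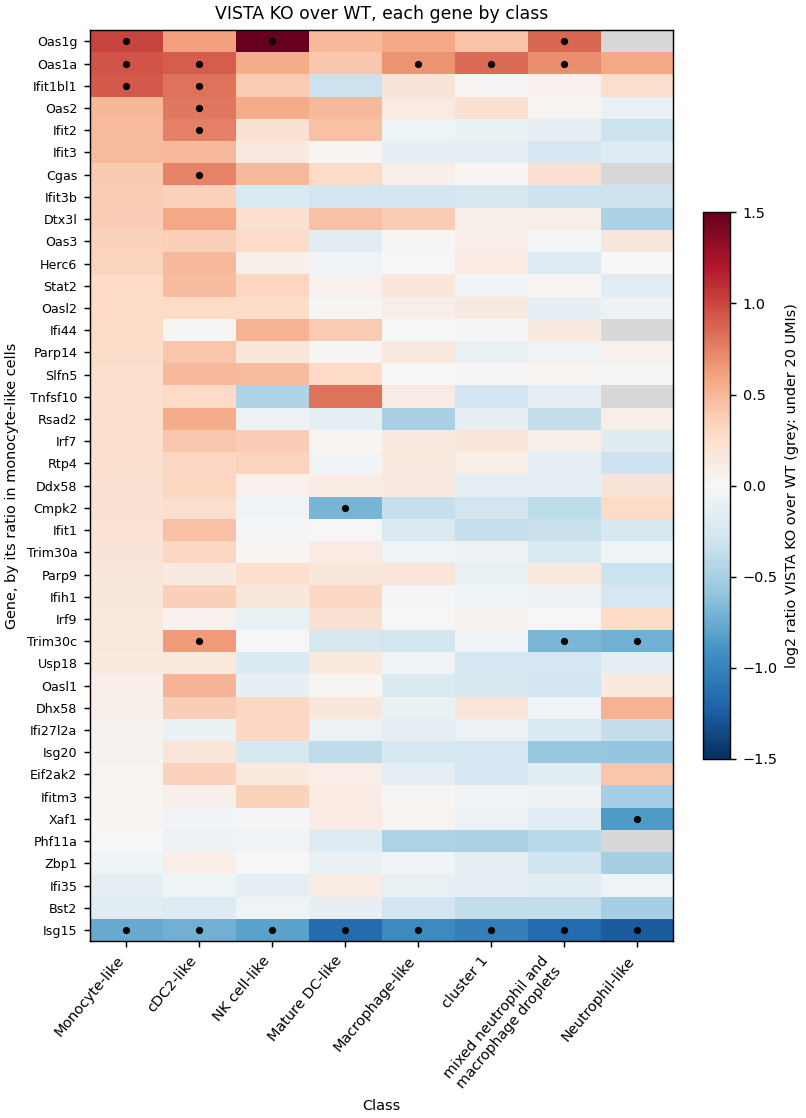
Log2 ratio of VISTA KO over WT for each member in 6 named classes, in cluster 1 and in mixed neutrophil and macrophage droplets, ordered by the ratio in monocyte-like cells. Black dots mark ratios of at least 1.5-fold with an interval that leaves out 1, and grey marks genes under 20 UMIs. Isg15 is blue in every column, and cDC2-like cells are the reddest beside monocyte-like cells, with a median of 0.35.

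With both libraries clustered together, cDC2-like cells had a higher median ratio and more members past the rule than monocyte-like cells. Their Oas1a, Ifit1bl1 and Isg15 ratios were of about the same size as in monocyte-like cells. The median member was 0.35 against 0.06 over all genes, and 6 members were higher and 1 lower (5.66% and 2.24% of all genes). The higher ones were Oas1a (26.3 and 49.9 CPM, 0.91), Ifit1bl1 (35.4 and 62.8, 0.82), Oas2 (26.7 and 46.4, 0.79), Ifit2 (277 and 468, 0.76), Cgas (24.5 and 41.4, 0.75) and Trim30c (37.6 and 59.0, 0.64). The lower one was Isg15. The share of members called higher, 14.6%, was above the background, on counts as low as 67 UMIs for Cgas in WT. Macrophage markers, 13 with none at 0, summed to 1202 CPM in WT and 2183 in VISTA KO in these cells, and their part was not tested. The higher median than in monocyte-like cells did not hold with each library clustered alone. Monocyte-like cells then had a median of 0.38 with 8 members higher, while the cDC2-like median lay between 0.25 and 0.37 over all settings run.

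Macrophage-like cells had no common direction: 20 ratios were positive and 21 negative, at a median of -0.01 against 0.04 over all genes. Oas1a was higher (27.0 and 43.3 CPM, 0.68) and Isg15 lower, where 4.61% and 2.50% of all genes were. The class is made of 2 clusters in unequal shares: cluster 2 held 1060 of the WT and 1882 of the VISTA KO cells, and cluster 4 held 466 and 2168. Cluster 4 had the higher module level in both libraries, 28809 CPM in WT and 22543 in VISTA KO, against 20481 and 18881 in cluster 2. Within cluster 4, 36 of 41 members had a negative ratio (median -0.26), and 8 met the rule on the lower side and 0 on the higher (2.17% and 3.78% of all genes). These were Isg15, Isg20, Ifit3, Ifit3b, Oasl1, Rsad2, Cmpk2 and Phf11a. The median gene of cluster 4 alone is not given here. Rsad2 there had 561 CPM in the WT library and 276 in VISTA KO (-1.02, -1.12 to -0.92). In cluster 2 only Isg15 was lower and only Oas1a higher (1.65% and 4.0% of all genes). The class value of -0.13 for the module thus combines -0.12 in cluster 2 and -0.35 in cluster 4 with different mixtures of the clusters.

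Monocyte-like clusters differed among themselves as well. In cluster 5 (1297 and 1268 cells) 8 members were higher and 1 lower (6.01% and 2.75% of all genes), and Rsad2 had 506 CPM in WT and 766 in VISTA KO (0.60). In cluster 0 (1742 and 1505 cells) 3 were higher and 1 lower (5.38% and 1.92%), and Rsad2 was at 487 and 431 CPM (-0.17). In cluster 9, 1 was higher and 1 lower (7.25% and 2.91%). Oas1a was higher and Isg15 lower in each of the 3.

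The unnamed clusters were read in the same way. Cluster 1, led by Gpr84, Cxcl9, Ly6i and Nos2, had 1 member higher, Oas1a, and 1 lower, Isg15 (3.65% and 1.79% of all genes). Cluster 14, led by Ace and Treml4, had 4 higher, Ifit1bl1, Oas1a, Dhx58 and Herc6, and 1 lower of 39, Isg15 (4.19% and 3.64%). Cluster 6 had 1 higher, Ifit1bl1, and 2 lower, Isg15 and Isg20 (3.83% and 3.07%). Cluster 10 had 0 higher and 3 lower, Isg15, Rsad2 and Cmpk2 (3.26% and 3.43%). Against cluster 1, monocyte-like cells had 1 member higher, Trim30c, and 2 lower, Ifit1bl1 and Ifi44, in WT (0.960% and 10.8%). In VISTA KO Trim30c alone was higher and 0 were lower (1.79% and 11.8%).

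Neutrophil-like cells were few in VISTA KO, and 5 members fell under 20 UMIs. Of the other 36, 24 had a negative ratio (median -0.15 against 0.18 over all genes), 0 were higher and 3 lower (7.48% and 4.36% of all genes): Isg15, Xaf1 (835 and 456 CPM, -0.85, -1.33 to -0.44) and Trim30c (597 and 354 CPM, -0.72). Rsad2 was at 0.08 (-0.05 to 0.21). The pseudocount raised ratios of low counts here, since 1 UMI was 1.87 CPM in WT and 9.31 in the smaller VISTA KO sum. Oas1a, for example, had 35.6 and 46.5 CPM from 19 and 5 UMIs and a log2 ratio of 0.58. The part of the pseudocount in the median over all genes was not tested. The 13 macrophage markers summed to 1359 CPM in these WT cells, with none at 0, and 2866 in VISTA KO, with 2 at 0, and their part was not tested. In mature DC-like cells 0 members were higher and 2 lower (7.12% and 1.77%), Isg15 and Cmpk2 (69.3 and 42.5 CPM, -0.70, -1.20 to -0.21). Here too the 13 macrophage markers differed, at 2663 and 5007 CPM, as did the 12 neutrophil markers, at 1929 and 1106.5 CPM, with none at 0, and their part was not tested. The WT mature DC-like cells in the highest quartile of member share had 448 CPM of C1qa and 925 of the neutrophil gene S100a8, against 32.7 and 10.9 in the lowest. In NK-like cells Oas1g was higher, from 6 and 22 UMIs, and Isg15 lower (5.89% and 1.93%). The Isg15 call in this class was lost when mixed droplets were split off. Summed over that class the 12 neutrophil markers had 1715 CPM in WT and 348 in VISTA KO, and the 13 macrophage markers 5223.5 and 7170.2, with none at 0, and the part of the neutrophil markers was not tested. Mixed cDC2 and macrophage droplets (cluster 11, 179 and 330) had 1 member higher and 10 lower (5.78% and 4.35%), and mixed neutrophil and macrophage droplets 2 and 2 (5.27% and 2.34%). In the latter the 12 neutrophil markers, none at 0, summed to 12015 CPM in WT and 8741 in VISTA KO, and their part in the module's lower VISTA KO level (29262 and 24535 CPM) was not tested.

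The members varied widely from cell to cell. At 1000 UMIs per cell, monocyte-like cells held 28.7 ± 12.0 member UMIs in WT (mean ± SD over 3425 cells) and 29.5 ± 12.1 in VISTA KO (3158 cells), and a median of 10 and 11 different members. Macrophage-like cells held 23.4 ± 12.7 and 21.5 ± 11.8, cDC2-like 24.1 ± 11.5 and 25.1 ± 12.3, and NK-like 7.53 ± 8.38 and 9.91 ± 8.16. Neutrophil-like cells held 55.0 ± 36.0 (298 cells) and 44.1 ± 34.9 (65 cells). These SDs are spreads over cells of 1 library and not errors of a group.

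The 38 members outside Ifitm3, Ifi27l2a and Isg15 showed the cells with a strong response more plainly. At least 20 UMIs of them were found in 11.5% of WT (10.5% to 12.6%) and 15.5% of VISTA KO monocyte-like cells (14.3% to 16.9%). Among cDC2-like cells, 34 of 461 reached it in WT (5.16% to 10.2%) and 91 of 699 in VISTA KO (10.6% to 15.7%). In macrophage-like cells they were 7.63% (6.34% to 9.10%) and 6.10% (5.37% to 6.89%). In neutrophil-like cells they were 58.1% (52.2% to 63.7%) and 46.2% (33.7% to 59.0%), and in NK-like cells 0.972% and 1.22%. Few monocyte-like cells held none of these members, 0.526% in WT and 0.317% in VISTA KO, against 13.1% and 5.05% of NK-like cells. The 10% of monocyte-like cells with the most of this RNA held 23.7% of it in WT and 23.9% in VISTA KO.

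**Figure D4:**
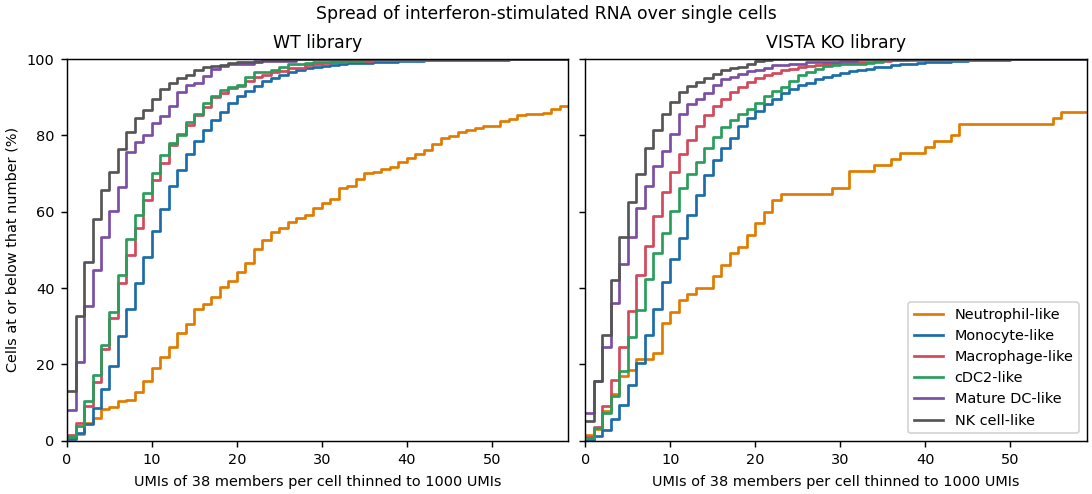
Cumulative share of cells by the number of UMIs from 38 members (without Ifitm3, Ifi27l2a and Isg15) per cell thinned to 1000 UMIs, 1 panel per library. The axis stops short of the highest neutrophil-like cells. Neutrophil-like cells spread far to the right (median 22 in WT and 18 in VISTA KO), and NK-like cells lie to the left (3 and 4).

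Not all members varied with the rest. Monocyte-like cells were ranked by the share of UMIs in all members but the one described, and its level in the top 10% was set against the remaining cells. Ifit1bl1 was 7.13-fold higher there in WT and 7.22-fold in VISTA KO. Ifit3b was 6.31-fold and 6.18-fold, Ifit3 4.27-fold and 3.92-fold, Rsad2 3.74-fold and 3.76-fold, and Cmpk2 3.65-fold and 4.33-fold. Irf9 hardly varied with the rest, at 0.987-fold and 1.11-fold, nor did Cgas (1.19-fold and 0.906-fold), and Ifitm3 was at 1.28-fold and 1.26-fold. The median member was 1.86-fold higher in WT and 1.85-fold in VISTA KO, and 16 and 18 of 41 were at least 2-fold. The 2 rankings come from separate libraries and gave the same leading pair. Isg15 was 2.53-fold and 2.77-fold higher, so within each library it followed the other members even though it was lower in VISTA KO. The share used for ranking is mostly RNA of Ifitm3, Ifi27l2a and Isg15. Ranked by the other members without these 3, the lowest member was at 1.17-fold in WT and 1.11-fold in VISTA KO. The median member was then at 1.86-fold and 1.93-fold.

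**Figure D5:**
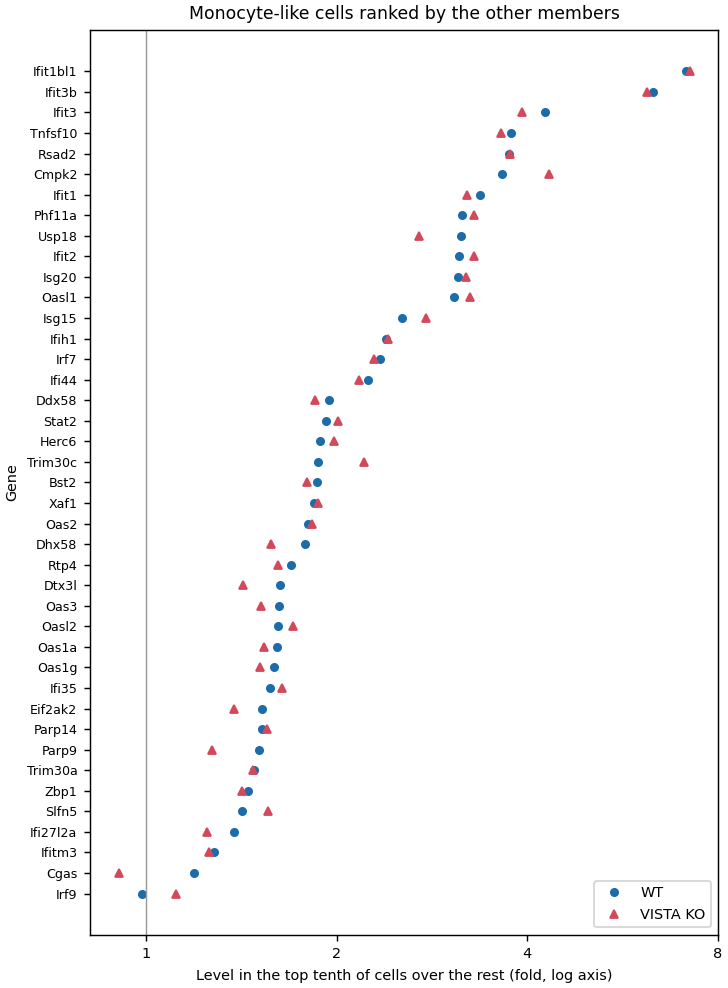
Level of each member in the 10% of monocyte-like cells that are highest for all other members, over its level in the remaining cells (fold, log axis), in WT (circles) and VISTA KO (triangles). Ifit1bl1 and Ifit3b lead above 6-fold in both libraries, and Irf9 and Cgas lie near 1.

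Oas1a, the member most often higher in VISTA KO, was 1.61-fold and 1.54-fold higher in the top 10%, from 68 and 102 UMIs there. Of 6856 genes outside the list, the 10 whose log normalized counts went most with the member share, by the smaller of the correlations in the 2 libraries, were Ms4a4c (0.33 in WT and 0.29 in VISTA KO), Cxcl10 (0.28 and 0.34), Phf11b, Plac8, Fcgr1, Tspo, Mndal, Phf11d, Slfn4 and Ifi209 (0.20 and 0.23). Against the share of the 38 members without Ifitm3, Ifi27l2a and Isg15 the order of these 10 was another one, with Cxcl10 first (0.37 and 0.41) and Plac8 (0.22 and 0.17) and Tspo (0.16 and 0.16) last, and Ifi204, outside the 10, was at 0.24 and 0.28. The points are 3425 and 3158 cells of 1 library each, which share depth and free RNA, and these values are weak.

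The antibody tags gave another readout of the same cells. In monocyte-like cells cut into quartiles by member share, the median Ly6C tag count was 852, 969, 1066.5 and 1209.5 from the lowest to the highest in WT, and 770.5, 827, 934.5 and 987 in VISTA KO. In macrophage-like cells it went from 470.5 to 1755 in WT and from 537.5 to 1487 in VISTA KO. Over the same macrophage-like quartiles Ly6c2 RNA, a monocyte marker, went from 959 to 4551 CPM in WT and from 1098 to 4214 in VISTA KO. C1qa went from 3409 to 2856 and from 3798 to 3094 CPM, and the median depth from 5562.5 to 4461 and from 5091.5 to 3923 UMIs. The part of cell type and depth in these tag values was not tested. In monocyte-like cells Ly6c2 RNA went from 3395 to 5769 CPM in WT and from 3436 to 5239 in VISTA KO, and the median depth of these cells fell from 4819 to 4023.5 UMIs and from 4048.5 to 3664. The Ly6G tag stayed between 3 and 4, and the CD11c tag between 4 and 7. Quartiles cut without Ifitm3, Ifi27l2a and Isg15 gave a Ly6C median from 869 to 1120 in WT, and 774, 916, 898 and 919 in VISTA KO.

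Of the cytokines themselves little was captured. Ifnb1 had 14 UMIs in all WT and 4 in all VISTA KO cells. Ifna1, Ifna2, Ifna4, Ifna5, Ifna12, Ifnl2 and Ifnl3 had 0 in both, which allows a level of up to 0.0486 CPM in WT and 0.0374 in VISTA KO (3 counts). Ifng, the type II cytokine, had 623 and 683 UMIs, counts not scaled to the larger VISTA KO library. T cells held 22 of these UMIs in WT (146 cells) and 227 in VISTA KO (17 cells). Of the receptors and kinases, 7 of 8 had 20 UMIs in monocyte-like cells, and 0 met the rule in either direction: Ifnar1 had 82.9 and 106 CPM (0.35) and Ifnar2 200.2 and 202 (0.01). Of 6 signal factors 0 met it, with Irf1, a factor of both interferon types, at 393 and 431 CPM (0.13). Of 9 sensors and adaptors Tlr9 was higher, from 67 and 104 UMIs (0.98, 0.53 to 1.45). Of 5 feedback genes 0 were higher and 1 lower, which is Isg15 again since it stands in both lists, and Socs3, an inhibitor of cytokine receptors, was at 0.56.

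Genes best known as targets of interferon gamma had mostly positive ratios in monocyte-like cells. Of 20 measured, 19 were positive at a median of 0.32 (0.09 over all genes), and 5 were higher and 0 lower, where 5.82% and 2.02% of all genes were: Ciita (1.19), Cxcl9 (0.77), Irgm2 (0.67), Irgm1 (0.66) and Igtp (0.62). Cxcl9, a T cell attractant, had 372 CPM in the WT library and 634 in VISTA KO. Cxcl10, which both types of interferon induce, was at 0.12. The difference between the 2 lists was not tested. The Ifi200 family of DNA sensors split: 2 of 12 were higher and 5 lower, against the same 5.82% and 2.02% of all genes. Ifi202b had 5.21 and 766 CPM (7.18) and Ifi213 269 and 6.35 (-5.39), larger ratios than that of any type I member. The libraries differ in CD45 form as well as in genotype. These go together in this design, and the part of each in these ratios was not tested.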

How the data were processed

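The authors deposited whole-number UMI counts, 1 matrix per library, with 3 antibody tags among the rows and no normalization. They were written by Cell Ranger 5.0.0 per the file headers. The submitters' processing notes name mm10 and Seurat 4.0, without saying what Seurat was used for. Barcodes were kept with at least 200 genes, 500 UMIs and at most 10% mitochondrial UMIs (99.5% of WT and 99.2% of VISTA KO). Both libraries were clustered together with scanpy 1.11.5 and leidenalg 0.10.2 (1 set of 2000 variable genes over both libraries, 30 components, 15 neighbours, resolution 1, seed 7). The members, the interferon gamma and Ifi200 lists, Ccl5, Vsir, mitochondrial, ribosomal, sex-linked and cell cycle genes were kept out. Interferon genes outside these lists were not. A name needed at least 3 markers at 1.5-fold and in 20% of cells, and a cluster was called mixed with 3 macrophage markers in 60% of its cells. Both limits were chosen with the clusters in view, and no doublets were removed. Counts were summed per class and library and given as CPM with exact Poisson intervals. Log2 ratios used a pseudocount of 1 UMI per sum (none for the module) and exact conditional binomial intervals. The pseudocount was not scaled to the size of the sum, so it weighed more in the smaller one. All intervals cover counting error only. Cells were thinned without replacement, and shares have exact Clopper-Pearson intervals. The ratio and thinning steps were tested on simulated data.

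The members and lists were chosen with earlier results of these data known. Named genes were the most abundant members, those with the highest and lowest ratios, all that went against the median by the 1.5-fold rule, and the 10 genes most correlated with the module. Gene positions and promoters are RefSeq's on GRCm38.p6. A gene of the pathway lists is not reported here.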

Additional observations from a re-analysis of the deposited data

Results flagged for a closer look

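In 4 members the ratio of VISTA KO over WT met the 1.5-fold rule in opposite directions in different clusters. These differences between clusters were not tested, since each group is 1 library. Rsad2 was at 0.60 on the log2 scale in cluster 5, a monocyte-like cluster, and at -1.16 in cluster 11, mixed cDC2 and macrophage droplets. It was higher in 1 cluster and lower in 3. Ifit3 was at 0.66 in cluster 5 and -0.70 in cluster 11, higher in 1 and lower in 2. Ifit3b, a close copy of Ifit3, was at 0.62 in cluster 5 and -0.82 in cluster 4, a macrophage-like cluster, higher in 1 and lower in 2. Trim30c was at 0.64 in cluster 8, the cDC2-like cells, and -0.87 in cluster 11, higher in 1 and lower in 3. The counts behind Trim30c are small, with 83 and 67 UMIs in cluster 11.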

How the results depend on the processing

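No paired analysis was possible because 1 library per group leaves nothing to pair. The module's log2 ratio in monocyte-like cells (0.05) was -0.04 when scaled to the median gene, which shifts ratios by 0.09 there (0.18 in neutrophil-like cells), 0.09 with a stricter cell filter, 0.07 without droplets above 10000 UMIs and also at resolution 2, 0.08 with interferon genes kept in the clustering, 0.11 with each library clustered alone, 0.01 as a mean over cells, 0.18 without the 3 most abundant members and 0.10 without Isg15. In macrophage-like cells (-0.13) it was, in the same order up to the mean over cells, -0.17, -0.15, -0.18 and -0.09, -0.09, -0.20 and -0.12. Without Isg15 it was -0.08 there. Summed without Ifitm3, Ifi27l2a and Isg15, macrophage-like cells had 8835 CPM in WT and 8318.5 in VISTA KO. The median member in monocyte-like cells (0.23) was 0.14 with the median scaling and 0.38 with each library clustered alone, which also gave 8 members higher in place of 3, while the share of all genes called higher went from 5.82% to 6.73%. In macrophage-like cells the median (-0.01) was -0.11 with each library alone, and 2 members in place of 1 were higher under the strict filter, without deep droplets, at resolution 2 and as a mean over cells. The module in mature DC-like cells (-0.10) was 0.04 without deep droplets, 0.00 as a mean over cells, 0.02 without the 3 top members and 0.01 without Isg15. With the top quartile of cells in place of the top 10%, the median member was 1.67-fold (WT) and 1.64-fold (VISTA KO) in monocyte-like and 1.94-fold and 1.91-fold in macrophage-like cells. Isg15 kept its sign under every alternative run in monocyte-like (-0.85 to -0.69), macrophage-like (-1.09 to -0.89) and neutrophil-like cells (-1.43 to -1.23). In NK-like cells it was 0.70 with each library clustered alone, where mixed droplets stayed in the VISTA KO class and left the WT class. Oas1a in monocyte-like cells stayed between 0.85 and 1.02. The sums without Isg15 were added after seeing the data. Neutrophil-like cells had no value with each library clustered alone or under the stricter filter. Their shift of 0.18 includes the pseudocount, which weighed more in the smaller VISTA KO sum.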
